A study of Mus musculus with 4 samples.

Results

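The 10 Kruppel-like factor genes Klf2, Klf3, Klf4, Klf5, Klf6, Klf7, Klf9, Klf10, Klf13 and Klf16 were followed across 4 arrays of mouse embryonic stem (ES) cells. All 34 probe sets that the platform's annotation assigns to these symbols alone were taken. They are 10 of 18194 genes on the array, and all 10 were above the signal filter and tested. Total RNA came from homozygous BAF250 knock-out cells (2 arrays, ko1 and ko2), heterozygous BAF250 knock-out cells (1 array) and wild type cells (1 array). BAF250 is a subunit of the SWI/SNF chromatin remodelling complex. All cultures shared the same medium, with serum and what the labels call leukocyte inhibitory factor, on gelatin and feeder free. Neither the letter of the BAF250 gene nor the way the alleles were altered, nor whether ko1 and ko2 are separate clones, is given in the sources used here. Below, ko1 and ko2 are called lines for short, with no claim that they are separate clones.

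Kruppel-like factors are transcription factors that bind GC-rich and CACCC elements through C-terminal zinc fingers. KLF2, KLF4 and KLF5 are activators that help to keep mouse ES cells in the naive state, and any of them can partly stand in for another. Klf4 is a direct target of LIF and STAT3 signalling, while Klf2 is linked to OCT4, and FGF and ERK signalling works against KLF2. KLF6 and KLF7 are further activators of the same branch, found in many tissues. KLF3 recruits the CtBP co-repressors, and KLF9, KLF10, KLF13 and KLF16 recruit the SIN3 co-repressor.

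The stretch of 250 bases before the start site of Klf2, Klf4 and Klf3 is printed because Klf2 and Klf3 were the members that passed the test and Klf4 is the member set against Klf2. These sequences are RefSeq's, of build GRCm38.p6, 5′ to 3′ along the gene. Capitals mark the GC box GGGCGG and the CACCC element, each on either strand (CCGCCC and GGGTG); where matches overlap, the capitals run together.
Klf2, chr8:72318812-72319061, plus strand: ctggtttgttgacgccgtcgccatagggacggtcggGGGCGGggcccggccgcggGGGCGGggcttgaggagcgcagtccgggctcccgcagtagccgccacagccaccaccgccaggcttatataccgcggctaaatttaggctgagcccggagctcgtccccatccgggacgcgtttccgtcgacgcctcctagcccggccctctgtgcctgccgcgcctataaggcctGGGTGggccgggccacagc
Klf4, chr4:55532476-55532725, minus strand: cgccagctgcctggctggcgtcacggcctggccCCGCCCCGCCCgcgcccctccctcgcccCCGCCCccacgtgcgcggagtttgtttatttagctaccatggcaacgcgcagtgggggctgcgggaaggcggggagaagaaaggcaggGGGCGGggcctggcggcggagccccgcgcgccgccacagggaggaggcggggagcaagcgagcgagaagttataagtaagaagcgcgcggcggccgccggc
Klf3, chr5:64803271-64803520, plus strand: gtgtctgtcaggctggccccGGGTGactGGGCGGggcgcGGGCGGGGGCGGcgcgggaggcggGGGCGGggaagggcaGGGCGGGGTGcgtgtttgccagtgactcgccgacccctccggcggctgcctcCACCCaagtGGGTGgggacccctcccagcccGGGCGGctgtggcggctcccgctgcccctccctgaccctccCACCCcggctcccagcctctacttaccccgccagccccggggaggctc
Klf2 held 2 GC boxes and 1 CACCC element, Klf4 4 and 0, and Klf3 6 and 5. Of 32851 such windows in the same table, 32.7% held a GC box and 52.0% a CACCC element. In base content the Klf2 window was 71.2% G or C, that of Klf4 74% and that of Klf3 78.4%, against a median of 52.4% over all windows. The table had a window for 7 of the 10 genes. The GC box was also found in Klf6, Klf7 and Klf13 and not in Klf9. The palindrome TTCNNNGAA, a letter pattern read by STAT proteins, matched in Klf9 alone of these 7 and in 7.02% of all windows. TAAATTTA, an exact form of the sites read by MEF2 proteins, matched in Klf2 alone of the 7 and in 0.502% of all windows. Other forms of these sites were not searched. These are matches of letters, and no binding was measured.

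The arrays differed in level. The median signal was 4.01 in wild type and between 2.61 and 2.74 on the other arrays, and the median gene differed by -0.75 (log2) between homozygous and wild type, by -0.03 between homozygous and heterozygous and by -0.68 between heterozygous and wild type. Each log2 difference below has the median gene of that difference subtracted, with folds taken from the result, so a value for 1 line and the mean of both lines have slightly different reference points. Adjusted p-values come from limma on the signals as deposited, with Benjamini-Hochberg adjustment over 13730 genes and a threshold of 0.05. They test the difference before the median gene is subtracted, which for Klf2 is -2.85 and for Klf4 0.45. The fit with array medians centred, which tests the difference after each array's own median is taken out, is given beside the calls of members. Beside those of the lists it is given as counts. In that fit the median gene still stood at -0.18 between homozygous and wild type, so its p-values do not test exactly the differences printed. Background was the brightest of 27 control probe sets for bacterial transcripts that are not spiked, at 7.57 in wild type, 6.92 in heterozygous, 5.55 in ko1 and 3.82 in ko2. Of the 34 Klf probe sets, 8 were above background on all 4 arrays and 7 on none. Arid1a, which encodes BAF250a, read 109 in wild type and 50.4 in heterozygous, against 7.03 for ko1 and 3.57 for ko2. Actin controls were 1.30 times as bright at the tail end as at the front end of the transcript in wild type, 2.86 in heterozygous, 2.61 in ko2 and 5.01 in ko1, a sign of RNA quality whose part in the results was not tested.

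The Klf genes did not move as a block. Klf2 and Klf3 were lower in homozygous than in wild type cells and passed the test, 8 others did not pass, and Klf4 was the single member whose brightest probe set stood above both other arrays in both homozygous lines. So 2 of 10 members fell, against 0.619% of all genes tested, and 0 rose, against 0.401% of all genes. The members were chosen with earlier results of these data known, so the shares in this paragraph describe the set and do not test it. With array medians centred, neither fall passed, and the split of all calls turned from 85 lower and 55 higher to 5 lower and 45 higher. The 10 genes had a median log2 difference of -0.64 from wild type, where the median of all genes is 0, and 7 of the 10 were negative, 1 of them Klf10, which was below background on every array. At an unadjusted p under 0.05 there were 5 members, against 11.9% of all genes. Order was read in the 9 members and 12149 genes that were above background on at least 1 array. In 6 of these 9 both homozygous arrays lay below both others after centring, against 20.3% of such genes, and in 1 of the 9 they lay above, against 19.6%. The 6 include Klf3, whose ko2 and heterozygous arrays were nearly equal (18.2 and 18.6 as deposited). Relative to the median gene, ko2 stood 0.0331 above heterozygous there. They also include Klf7. In Klf3 ko1 and in Klf7 ko2 were below background.

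**Figure D1:**
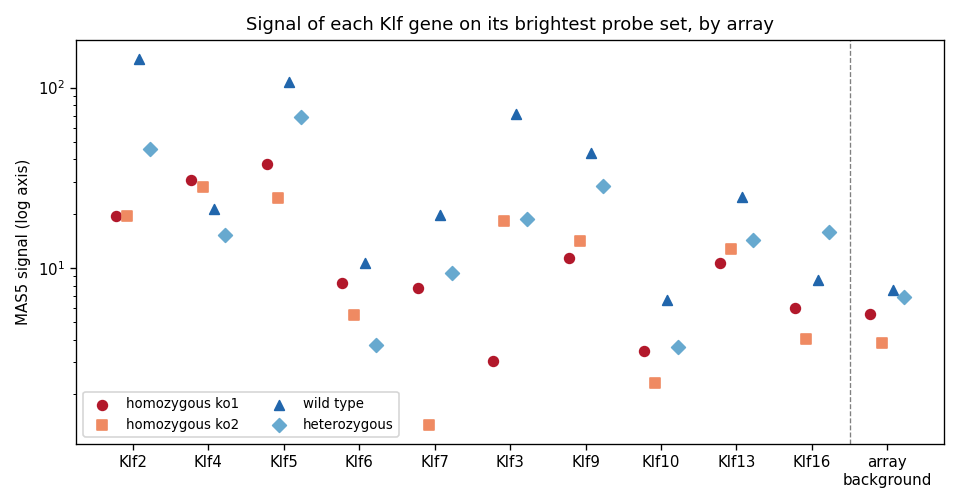
MAS5 signal (log axis) of each Klf gene on its brightest probe set, with 1 point per array and the background of each array at the right. Klf2 reads 145 in wild type against 19.4 and 19.5 in the homozygous arrays, Klf4 reads highest in the homozygous arrays, and Klf10 lies below background on every array.

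Klf2 is the activator best known for quiescence of T cells and endothelium as well as for naive ES cells. Its only probe set (1448890_at) read 145 in wild type, 45.7 in heterozygous, 19.4 in ko1 and 19.5 in ko2. Both homozygous arrays were low and nearly equal, wild type was high and heterozygous lay between. Wild type and heterozygous are 1 array each, so their spread is not known. After centring, both homozygous arrays lay below both others in 20.3% of genes above background on at least 1 array. The log2 difference of homozygous from wild type was -2.11 ± 0.54 (SE; homozygous n = 2, wild type n = 1; limma adjusted p = 0.00109), 4.31-fold lower. In bulk RNA, fewer ES cells and less RNA per cell cannot be told apart. The call ended with array medians centred (limma adjusted p = 0.0678). The printed difference is the same there by construction, because the median gene is subtracted in both fits. Against heterozygous the difference was -1.17 ± 0.54 (limma adjusted p = 0.617). Heterozygous differed from wild type by -0.97 ± 0.62 (limma adjusted p = 0.578). The place of heterozygous between the other genotypes was thus kept after the level of the arrays was taken out, in a single array.

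Klf4 encodes a factor used to reprogram somatic cells to pluripotency. Its brighter probe set (1417395_at) read 21.3 in wild type, 15.2 in heterozygous, 30.9 in ko1 and 28.0 in ko2. Both homozygous arrays were above both others in the signals as deposited. The log2 difference from wild type was 1.19 ± 0.58 (limma adjusted p = 0.718), 2.29-fold higher, and from heterozygous 0.95 ± 0.58 (limma adjusted p = 0.818). Neither passed, and with array medians centred the first had a limma adjusted p of 0.753. As deposited, without the shift of the median gene, the difference from wild type was 0.45. The second Klf4 probe set (1417394_at) read 12.9 in wild type, 6.17 in heterozygous, 38.4 in ko1 and 13.6 in ko2, and only heterozygous was below background. On it too the homozygous arrays were the highest, ko2 by little over wild type as deposited, and the log2 difference from wild type was 1.54.

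Klf5 acts in the inner cell mass and the trophectoderm as well as in ES cells. Its brightest probe set (1451021_a_at) read 108 in wild type, 68.6 in heterozygous, 37.7 in ko1 and 24.6 in ko2. Both homozygous arrays were below both others. The log2 difference was -1.05 ± 0.54 from wild type (limma adjusted p = 0.0991) and -1.12 ± 0.54 from heterozygous (limma adjusted p = 0.665), so neither passed. Heterozygous stood at 0.04 ± 0.62 from wild type, next to the median gene. A second Klf5 probe set (1451739_at) read 15.6, 6.47, 7.99 and 3.85 in the same order of arrays, highest in wild type, with ko1 above heterozygous (log2 difference from wild type -0.63). The third (1430255_at) was above background on 1 array and stood at 0.20.

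The contrast of Klf2 with Klf4 and Klf5 asks whether the genes that can stand in for each other moved alike. A ratio of 2 probe sets has no meaning as a level, but its change between arrays is free of the arrays' scaling. For Klf2 over Klf4 the log2 ratio was 2.72 in wild type, 1.54 in heterozygous, -0.65 in ko1 and -0.51 in ko2. Homozygous and other arrays were far apart and did not overlap. The ratio was -0.58 ± 0.10 (SD, n = 2) in homozygous arrays and lower than the mean of the other arrays by 2.71 on the log2 scale, that is 6.55-fold. An exact two-sided permutation test over the 4 arrays gave p = 0.333, the smallest this design allows (0.667 adjusted over the 2 pairs). The second Klf4 probe set gave a change of -3.32, with the homozygous lines further apart. There the log2 ratio was 3.42 in wild type, 2.76 in heterozygous, -0.96 in ko1 and 0.50 in ko2. Heterozygous Klf4 was below background on it.

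For Klf2 over Klf5 the log2 ratio was 0.43 in wild type, -0.58 in heterozygous, -0.93 in ko1 and -0.33 in ko2. Heterozygous lay between the homozygous lines, so the groups overlapped, and the change was -0.55 (exact two-sided permutation p = 0.667, also after adjustment). On this probe set the ratio of the homozygous arrays stood at -1.05 from wild type and at -0.05 from heterozygous. The other Klf5 probe sets gave another picture, with both homozygous arrays below both others. On the second, where heterozygous Klf5 was below background, the change was -1.24, with -1.47 from wild type and -1.01 from heterozygous. On the third, which was above background on 1 array, it was -2.11, with -1.90 from heterozygous. For Klf5 over Klf4, given without a test, the log2 ratio was 2.30 in wild type, 2.12 in heterozygous, 0.28 in ko1 and -0.18 in ko2. On the brightest probe sets Klf5 thus shifted with Klf2 and away from Klf4 in the homozygous arrays. In heterozygous Klf2 was lower against both Klf4 and Klf5 than in wild type, in 1 array each. The log2 shifts were -1.18 and -1.01 on the brightest probe sets. They were smaller on the other probe sets, at -0.66 with Klf4 1417394_at, -0.46 with Klf5 1451739_at and -0.41 with Klf5 1430255_at. Heterozygous Klf4 or Klf5 was below background on each of these other probe sets.

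**Figure D2:**
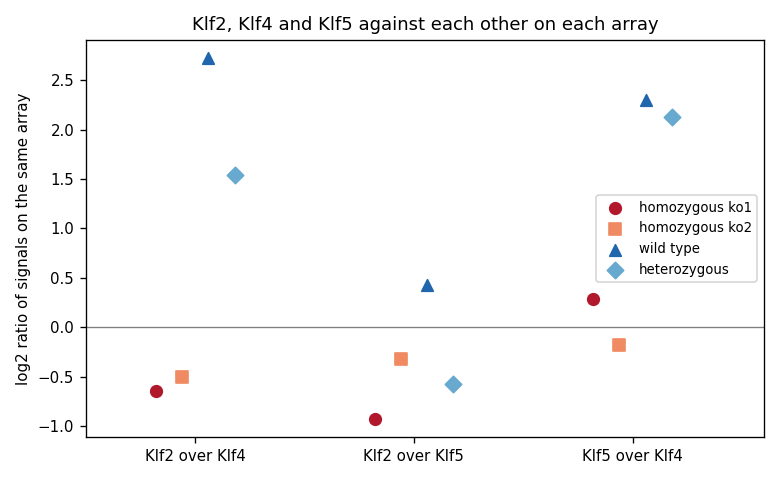
Log2 ratio of the signals of 2 genes on the same array, for Klf2 over Klf4, Klf2 over Klf5 and Klf5 over Klf4, with 1 point per array. For Klf2 over Klf4 the homozygous arrays sit at -0.65 and -0.51 against 2.72 and 1.54, while for Klf2 over Klf5 heterozygous (-0.58) lies between the homozygous lines.

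Klf6 encodes an activator induced by injury and growth signals in many cell types, and its probe sets disagreed. The brightest (1418280_at) read 10.7 in wild type, 3.73 in heterozygous, 8.23 in ko1 and 5.50 in ko2, and only heterozygous was below background. It stood at 0.13 ± 0.92 from wild type (limma adjusted p = 0.754). Another probe set (1427742_a_at) read 2.76 in wild type and 1.15 in heterozygous, both below background, against 9.56 for ko1 and 8.13 for ko2. There the homozygous arrays were higher by 2.21 on the log2 scale. With wild type set at its background this was at least 1.95-fold higher. The other 3 Klf6 probe sets were above background on 2 arrays at most.

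Klf7, known for a role in axon growth, read 19.7 in wild type, 9.34 in heterozygous, 7.76 in ko1 and 1.34 in ko2 on its brightest probe set (1419354_at). Both homozygous arrays were below the others, but ko2 was below background and ko1 was not. The log2 difference from wild type was -1.56 ± 0.92 (limma adjusted p = 0.295), a value that rests in part on a signal below background. In ko1 it was -0.69. With ko2 set at its background, homozygous was at least 2.15-fold lower. The 3 dimmer Klf7 probe sets were at or below background in wild type and stood at 0.06, 1.45 and 2.40.

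Klf3 is the CtBP-dependent repressor among the members, with known roles in red cells and fat. Its brightest probe set (1431630_a_at) read 71.4 in wild type, 18.6 in heterozygous, 3.07 in ko1 and 18.2 in ko2. Wild type was high, ko2 and heterozygous were alike, and ko1 was below background. The log2 difference from wild type was -2.35 ± 0.69 (limma adjusted p = 0.00991), a value that rests in part on a signal below background, and at least 4.24-fold lower with ko1 set at its background. The lines differed, with ko1 alone at least 8.62-fold lower and ko2 at -1.18, against -1.22 ± 0.80 in heterozygous. Without ko1 the difference was therefore -1.18, the same size as that of heterozygous. The fall also lost its call with array medians centred (limma adjusted p = 0.447). Among the other 6 Klf3 probe sets, 1 (1429360_at) read 17.7 in wild type, 5.62 in heterozygous, 5.52 in ko1 and 3.84 in ko2 (log2 difference -1.05). A further one (1421604_a_at) read 9.41, 0.927, 8.76 and 4.76 in the same order and stood at 0.25. The remaining 4 were above background on 2 arrays at most. When the log2 values of all 7 were averaged, Klf3 stood at 0.03 from wild type.

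**Figure D3:**
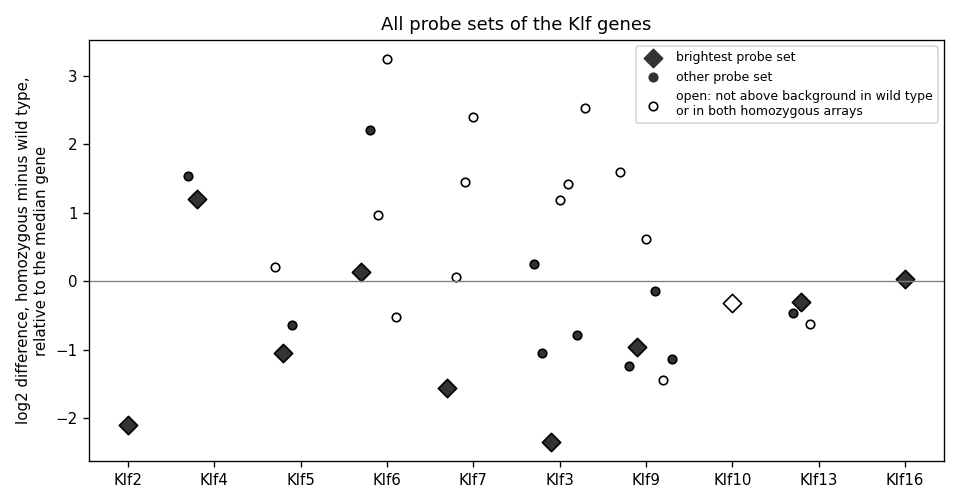
Log2 difference of homozygous from wild type, relative to the median gene, for each of the 34 Klf probe sets. Diamonds are the brightest probe set of a gene, and open symbols were above background neither in wild type nor in both homozygous arrays; Klf3 spans -2.35 to 2.54 and Klf4 lies above 0 on both of its probe sets.

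The remaining members encode the SIN3-dependent repressors. Klf9 is a target of thyroid hormone and glucocorticoid receptors, and 3 of its 7 probe sets were above background on all arrays. The brightest of them by mean (1428289_at) read 43.1 in wild type, 28.4 in heterozygous, 11.4 in ko1 and 14.1 in ko2, so both homozygous arrays were below both others. The log2 difference was -0.97 ± 0.59 from wild type (limma adjusted p = 0.193) and -1.09 ± 0.59 from heterozygous (limma adjusted p = 0.766). The other 2 stood at -1.24 (1428288_at) and -1.14 (1456341_a_at) from wild type. Tested each on its own, none of the 3 passed (limma adjusted p = 0.242, 0.184 and 0.213).

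Klf13, which controls chemokine genes in T cells, read 24.9 in wild type, 14.2 in heterozygous, 10.7 in ko1 and 12.7 in ko2 on its brightest probe set (1436316_at). Wild type was the highest as deposited. Relative to the median gene the difference was only -0.31 ± 0.65 (limma adjusted p = 0.486), and heterozygous stood at -0.10. Klf16 (1416350_at) read 8.56 in wild type, 15.9 in heterozygous, 6.0 in ko1 and 4.04 in ko2, close above background on all of these arrays but heterozygous. It was at 0.03 ± 0.85 from wild type (limma adjusted p = 0.694) and at -1.53 ± 0.85 from heterozygous (limma adjusted p = 0.785), with heterozygous the high array. Klf10, the TGF-beta inducible member, read 6.67 in wild type, 3.67 in heterozygous, 3.46 in ko1 and 2.32 in ko2 (1416029_at). All 4 values were below background, so no fold is given for Klf10.

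**Figure D4:**
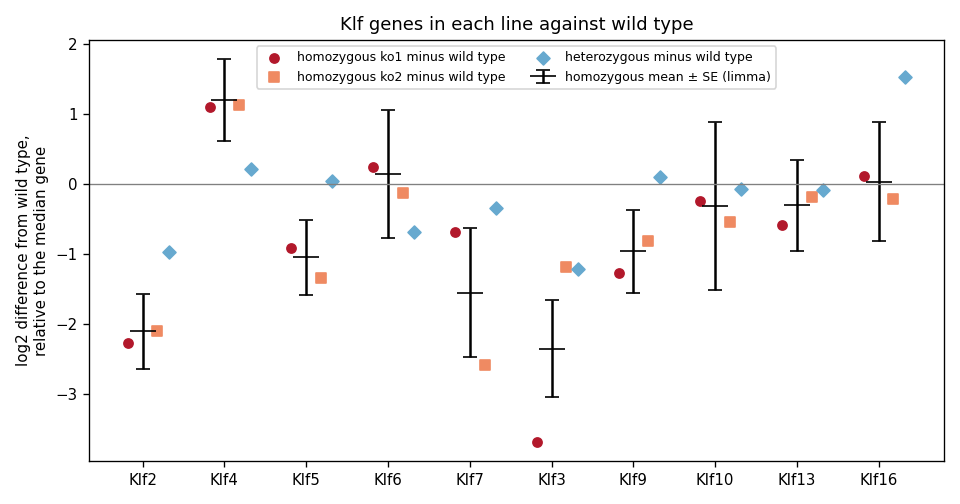
Log2 difference from wild type, relative to the median gene, of ko1, ko2 and heterozygous for each Klf gene on its brightest probe set; the black bar is the homozygous mean ± SE from limma. Klf2 is at -2.11, Klf4 at 1.19, and in Klf3 and Klf7 the homozygous lines are far apart, with the lower line (ko1 in Klf3, ko2 in Klf7) below background.

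Against heterozygous, none of the 10 members passed limma's test at the adjusted threshold, where 0.0583% of all genes were lower and 0.699% higher. At an unadjusted p under 0.05 there were 2, Klf2 and Klf5, against 6.88% of all genes. The median log2 difference of the 10 was -1.11. This comparison leaves out the wild type array, which had the highest signal level and the lowest actin ratio. For heterozygous minus wild type 0 members passed limma's adjusted threshold, as against 0.0146% of all genes lower and 0% higher. Unadjusted, 2 members were under 0.05, Klf2 and Klf3, against 7.56% of all genes, and the median of the 10 was -0.08. The homozygous comparisons share their arrays and so are not independent.

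By the distance between log2 values over the 4 arrays, each gene centred on its own mean, the closest genes to Klf2 were Ntn3 (0.101), Mlxip (0.173) and Evc (0.220), against a median distance of 2.16 over all tested genes. Ntn3 and Evc were above background in wild type alone and Mlxip on no array, so its place carries no measured order. Ntn3 read 10.7 in wild type, 2.97 in heterozygous, 0.790 in ko1 and 0.801 in ko2. Klf4 was closest to Stard8 (0.0544), Qtrt1 (0.0613) and Mydgf (0.0737), with a median of 1.64 over all genes. Stard8 was above background on 3 arrays and Qtrt1 on 1. Mydgf, the brightest of these, read 13.9 in wild type, 10.2 in heterozygous, 20.5 in ko1 and 19.6 in ko2. Klf5 was closest to Acsl5 (0.0327), Itgb3bp (0.0640) and Tbrg4 (0.0958), with a median of 1.70. Acsl5 and Tbrg4 were above background on all 4 arrays and Itgb3bp on none. Likeness over 4 arrays is a description only.

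Other genes of the KLF circuit were taken from fixed lists. Each count of calls in a list is to be read against all genes tested, of which 0.619% fell and 0.401% rose. The lists were chosen with earlier results of these data known, so the counts describe them and do not test them. With array medians centred, 5 fell and 45 rose of 13730 genes. Of the naive ES cell network that KLF2, KLF4 and KLF5 act in, 9 of 22 members fell, 0 rose and 13 did not pass, with a median log2 difference of -1.42. The 4 largest of these falls were the growth factor gene Fgf4 (-3.02 ± 0.63), Phc1, a polycomb subunit (-2.50 ± 0.54), Pou5f1, the OCT4 gene (-2.47 ± 0.58), and Utf1 (-2.34 ± 0.54). With array medians centred 3 of the 22 passed, Fgf4, Phc1 and Utf1. Klf2 at -2.11 lay within the range of the 9 falls (-3.02 to -1.42) and Klf4 at 1.19 lay on the other side of the median gene. In the 8 defining ES cell markers, all above background on every array, 5 fell (2 with array medians centred) and the median was -2.11. All of these markers but Dppa5a are also in the network list, and the 5 falls are among its 9.

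In the list of LIF and STAT3 signalling, which drives Klf4, 1 of 15 measured genes fell, 0 rose and the median was 0.09. The one that fell was Pim3, a kinase gene (-1.76 ± 0.53, limma adjusted p = 0.00625, and 0.141 with array medians centred, where the call was lost), while Stat3 itself read 24.2 in wild type, 17.8 in heterozygous, 11.7 in ko1 and 28.2 in ko2 (0.35 ± 0.62) without passing. Of 18 genes measured in the FGF and ERK list, which bears on KLF2, 3 fell, 0 rose and the median was -0.36. Besides Fgf4 they were the feedback inhibitor Spry4 (-2.15 ± 0.73, limma adjusted p = 0.0322) and the ETS factor gene Etv5 (-1.87 ± 0.69, limma adjusted p = 0.0437). With array medians centred Fgf4 alone of these passed.

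The immediate early list, whose response Klf4, Klf6 and Klf10 share in many cells, had 1 of 18 genes that rose, 0 that fell and a median of 0.07. That gene was Ccn2, which encodes a matricellular growth factor (4.30 ± 0.57, limma adjusted p = 9.93e-05, and 0.00592 with array medians centred). In the TGF-beta and SMAD list none of 12 passed (3 at an unadjusted p under 0.05 from limma, where 11.9% of all genes were, median -0.22). None of 16 KLF cofactors passed (3 unadjusted, median 0.02). Ctbp2, a co-repressor of KLF3, came nearest, with 68.1 in wild type, 55.3 in heterozygous, 14.9 in ko1 and 17.9 in ko2 (-1.27 ± 0.55, limma adjusted p = 0.0544). Of the other KLF and SP genes 7 of 15 were measured, none passed (1 unadjusted), and the median was 0.17. Sp1, a widely expressed factor that binds GC boxes, read 44.4, 16.4, 13.0 and 16.9 in the same order (-0.80 ± 0.60).

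Markers of extraembryonic endoderm moved with the same contrast. Of 17 measured, 9 rose (8 with array medians centred), against 0.401% of all genes, 0 fell, and the median was 3.81. Their summed signal was 201 in wild type, 139 in heterozygous, 7339 in ko1 and 4048 in ko2. The largest rises were those of the basement membrane genes Col4a2, Col4a1, Lama1 and Sparc, with Col4a1 at 10.3 in wild type, 11.3 in heterozygous, 1125 in ko1 and 663 in ko2. Trophoblast markers had 2 of 10 that rose, Krt18 and Krt8, of which Krt8 lost its call with array medians centred (limma adjusted p = 0.055), with summed signals of 468 and 375 against 130 and 128. No defining trophoblast regulator passed, and Cdx2 was below the signal filter. None of 8 fibroblast markers passed limma's test (0 unadjusted, summed signals 185 and 171 against 129 and 58.3). None of 6 primed epiblast markers passed (5 unadjusted, where 11.9% of all genes were, summed signals 26.3 and 27.1 against 123 and 113). On its brightest probe set Klf4 was higher in the arrays in which endoderm markers were high. Klf2, Klf3, Klf5, Klf7, Klf9 and Klf13 were lower in them, in Klf3 with ko2 next to heterozygous. Of these genes only Klf2 and Klf3 passed the test, and neither did with array medians centred. By such order alone, 20.3% of genes above background on at least 1 array lay below and 19.6% above. The part of endoderm cells in these differences was not tested.

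**Figure D5:**
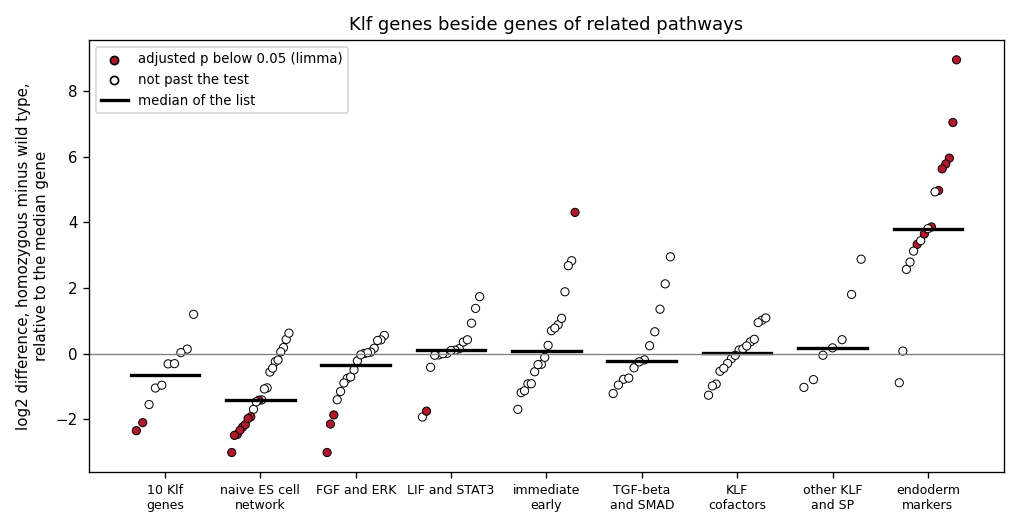
Log2 difference of homozygous from wild type, relative to the median gene, of the 10 Klf genes and of the measured genes of 8 lists, with filled points past the limma test and bars at list medians. The Klf median is -0.64, between the naive ES cell network (-1.42) and the LIF and STAT3 list (0.09), and endoderm markers have a median of 3.81.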

How the data were processed

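Each of the 4 RNA samples had its own Affymetrix array. The authors deposited linear signal intensities for all probe sets, with MAS5 named in the submitters' processing notes. No source used here gives the version, the scaling target or detection calls. Of 45101 probe sets, 34958 had 1 gene symbol in the platform's annotation.

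Signals were analysed as log2(signal + 0.675), the 20th percentile of all values, so changes of dim genes are understated. A gene was represented by its probe set of highest mean signal and tested where that mean was above 2.55, the 40th percentile. R 4.3.3 and limma 3.58.1 fitted 1 mean for each genotype with the eBayes intensity trend, and Benjamini-Hochberg adjustment followed. It has 1 residual degree of freedom, from the homozygous pair, and 47.6 in total with what limma borrowed across genes. The single arrays of the other genotypes were taken to vary as the homozygous ones do. Separate cultures of a line are not described, so p-values rest on the spread between these arrays, which may be technical. The limma fit was also run on simulated arrays with equal noise and no difference in array level. That run cannot show how the calls here depend on array level. Named were all 10 members, from each list the members past the test (the 4 largest where over 6 passed), and the 3 genes closest to Klf2, Klf4 and Klf5. Stat3, Ctbp2, Sp1, Cdx2 and the brightest look-alikes were named after their values were seen. The members and lists were chosen with earlier results of these data known. Promoter windows were cut to the bases before the start site.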

Additional observations from a re-analysis of the deposited data

How the results depend on the processing

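Of 10 members, 2 passed limma's test for homozygous minus wild type, as also with the pseudocount at the 40th percentile and with every probe set tested. There was 1 with the pseudocount divided by 16 (Klf2) and 1 with no filter (Klf2). There were 0 with quantile normalization, array medians centred, probe sets averaged, no intensity trend, or heterozygous and wild type joined as 1 group against homozygous. Klf2 kept its direction in every setting and lost its call with quantile normalization (-1.99, limma adjusted p = 0.0895), array medians centred (-2.11, 0.0678), probe sets averaged (-2.25, 0.13), no intensity trend (-2.11, 0.545) and the joined group (-1.70, 0.066). Klf3 had limma adjusted p-values from 0.0972 to 0.686 in the settings that ended its call with the direction kept. Over all genes, 140 calls became 56 with the pseudocount divided by 16, 203 with it at the 40th percentile, 33 with quantile normalization, 50 with centring, 44 with no filter, 110 with every probe set, 7 with averaging, 0 with no intensity trend (1232 at an unadjusted p under 0.05) and 90 with the joined group. Why the calls moved was not tested.

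With probe sets averaged, these log2 differences changed sign: from wild type, Klf3 (0.0336), Klf7 (0.45) and Klf16 (-0.11) in homozygous and Klf3 (0.0366), Klf4 (-0.14), Klf5 (-0.43), Klf6 (0.50), Klf7 (0.93) and Klf9 (-0.81) in heterozygous; from heterozygous, Klf9 (0.27) and Klf13 (0.22) in homozygous. Klf16 also turned with quantile normalization (-0.0295), no filter (-0.10) and the joined group (-0.81). In heterozygous against wild type, Klf5 turned with the pseudocount at the 40th percentile (-0.0318) and no filter (-0.0512), Klf9 with no filter (-0.00049) and Klf13 with quantile normalization (0.0403). None of these had passed the test, other than Klf3 from wild type, and the cause was not tested.

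Leaving out a homozygous line in turn leaves no residual degrees of freedom, so these are values with no test. From wild type, Klf2 ran from -2.27 to -2.10, Klf4 from 1.10 to 1.13, Klf5 from -1.35 to -0.92, Klf6 from -0.13 to 0.23 and Klf16 from -0.22 to 0.11. From heterozygous, Klf3 ran from -2.48 (ko1 alone, below background) to 0.0331. The change of Klf2 over Klf4 (-2.71) ran from -2.78 to -2.64 without a line and from -3.32 to -2.62 in the other settings, and that of Klf2 over Klf5 (-0.55) from -0.85 to -0.25 and from -2.11 to -0.53. No paired analysis was possible because only the homozygous group has numbered arrays. The number of arrays limits the precision, and values below background have no order.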
